A study of Homo sapiens with 4 samples.

Results

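The AP-1 transcription factors examined here are 10 genes chosen by name: the FOS family (FOS, FOSB, FOSL1 and FOSL2), the JUN family (JUN, JUNB and JUND) and 3 related genes (ATF3, BATF3 and JDP2). All 10 were present among the 19626 genes of the deposited tables. They were compared between ES-2 cells, an established ovarian cancer line that carries the YAP1-MAML2 (YM) fusion, transduced with a nontargeting control shRNA (shCtl, n = 2 biological replicates) and ES-2 cells transduced with shM2-3 (n = 2), an shRNA against a stretch of MAML2 that the fusion also contains. By the sample records, both groups received pLKO.1 lentivirus for 8 h on each of 2 successive days and grew in medium with 10% serum. RNA was taken 96 h after the first infection. The methods of the study differ: they state a shorter time to RNA, more days of infection and fewer hours on each. A single MAML2 shRNA in a single cell line was sequenced, so loss of the fusion, loss of MAML2 and other effects of this shRNA cannot be told apart in these libraries.

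AP-1 is not a single protein but a set of paired basic leucine zipper (bZIP) factors. FOS family proteins cannot pair with themselves and bind DNA together with a JUN family partner, whereas JUN proteins can also pair with each other, and the pairs recognise a short element called TRE or the related element called CRE. Growth factors and stress signals raise several of these genes within minutes through MAP kinases, and AP-1 often sits on the same enhancers as the TEAD factors, through which YAP1 and the YM fusion act.

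The libraries held between 20051083 and 23978660 estimated counts. MAML2, the gene targeted by the shRNA, had RPKM values of 8.61 and 8.26 in shCtl and 3.11 and 2.998 in shM2-3, and 36.2% of the control level remained, with reads of the fusion included. RPKM, a read count corrected for transcript length and library depth, allows levels of different genes to be set side by side. The markers of the labelled tissue were mixed. Of the clear cell markers, NAPSA and PAX8 had mean RPKM values of 0.110 and 0.120 in shCtl, while GLRX, RBPJ and ANXA4 had 40.0, 12.2 and 5.03, and GLRX was called lower in shM2-3 (log2 fold change -1.20, edgeR). The epithelial markers EPCAM and CDH1 were near 0 in both groups (0.0409 and 0.0172 in shCtl, 0.0973 and 0.0119 in shM2-3). The keratins KRT7, KRT8 and KRT18 all fell, from 268 to 107, from 71.9 to 29.4 and from 297 to 177, and the list summed to 637 in shCtl and 313 to 317 in shM2-3. Of the fibroblast markers, PDGFRA was called higher (7.55 to 25.0, log2 fold change 1.79) and THY1 fell (33.5 to 21.7), with list sums of 40.7 to 42.3 and 46.7 to 47.5. The other fibroblast markers were too low to test: COL1A2 had 0.363 in shCtl and 0.290 in shM2-3, and COL3A1, DCN, LUM and POSTN were near 0 in both groups. Of the leukocyte markers, CD68 fell (57.1 to 38.4) and carried most of the list sums of 57.1 to 57.4 and 40.6 to 41.9. CSF1R was called higher (0.0492 to 1.94, log2 fold change 5.33), and only its shM2-3 values reached the level needed for a test. CD14, which was too low to test, went from 3 and 4 counts to 42 and 37, and PTPRC, which marks all leukocytes, had a mean RPKM of 0.00863 in shCtl and 0.00991 in shM2-3. The part of other cell types in the results was not tested.

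In control ES-2 cells the AP-1 genes with the highest RPKM were FOSL1 and JUN, and these were the members that fell furthest in shM2-3 cells, whereas JUNB and JUND rose. Of the 10 genes, 8 had an RPKM above 1 in at least 1 library and were tested. With edgeR's quasi-likelihood test, 6 of them were lower and 2 higher in shM2-3 at an adjusted p up to 0.05 (Benjamini-Hochberg), where 36.4% of the 12157 tested genes were lower and 36.3% higher. With a fold change of 2 or more required as well, which defines a called gene here, 2 members were called lower (FOSL1 and JUN) against 8.93% of all tested genes, and 0 were called higher against 9.24%. At a fold change of 1.5, 5 members were called lower and 2 higher, where the background was 18.9% in each direction. The count of 0 called higher was the same with DESeq2 and with limma on RPKM, and 2 members were higher in edgeR's quasi-likelihood test at an unadjusted p below 0.05. The RPKM values of the groups did not overlap for any of the 8 tested genes, with 6 lower and 2 higher, while 47.1% of all tested genes were lower and 38.9% higher without overlap. The median log2 fold change of the 8 was -0.67, beside -0.00 for all tested genes. These are averages over a population, in which fewer cells with a transcript and less transcript per cell cannot be told apart.

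**Figure D1:**
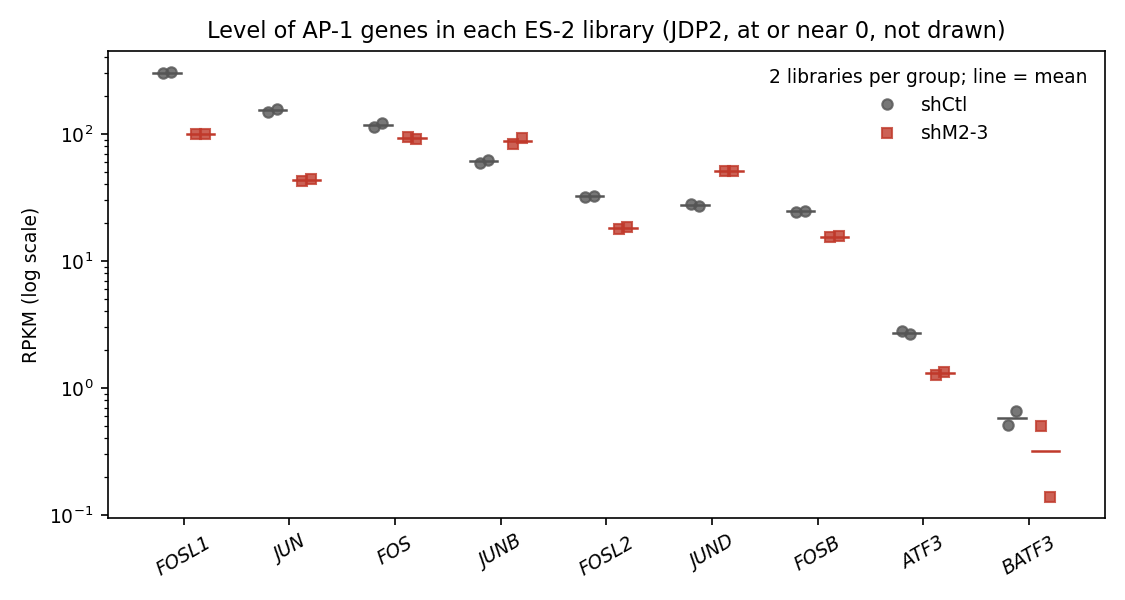
RPKM of 9 AP-1 genes on a log axis, with a point for each library of shCtl (grey circles) and shM2-3 (red squares) and a line at the mean of each group (n = 2). FOSL1 and JUN, the highest in shCtl, are lower in shM2-3, where FOSL1 remains first. JUNB and JUND are higher in shM2-3, and BATF3 has the widest spread within a group. JDP2, at or near 0, is not drawn.

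By RPKM, the order in shCtl was FOSL1, JUN, FOS, JUNB, FOSL2, JUND, FOSB, ATF3, BATF3 and JDP2, with no overlap between the replicate values of neighbours. In shM2-3 FOSL1 remained first, with 100.4 and 100.5, ahead of FOS with 95.1 and 90.4. FOS and JUNB were next to each other and did not differ beyond their spread, since JUNB had 84.0 and 93.2. JUND and JUN followed, so that JUN stood behind FOS, JUNB and JUND. Among all tested genes, the mean RPKM of FOSL1 stood at the percentile 98.9 in shCtl and 96.8 in shM2-3, and that of JUN at 97.7 and 91.8. JUND went the other way, from the percentile 84.4 to 93.1.

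FOSL1 encodes FRA1, a FOS family protein that lacks the strong activation domain of FOS and is abundant in many invasive carcinoma lines. Its RPKM was 301 and 307 in shCtl and 100.4 and 100.5 in shM2-3, from 12947 and 13447 estimated counts against 5288 and 4793. Both shM2-3 libraries were about level with each other and far below both controls, and 33.1% of the control RPKM remained. The log2 fold change of FOSL1 was -1.53 (standard error 0.0393, 95% interval -1.62 to -1.45, adjusted p = 5.90e-13, edgeR's quasi-likelihood test). The gene lies on chromosome 11 of hg38 from 65892049 to 65900573 on the minus strand, and no other annotated gene overlaps it in GENCODE v44.

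FOS, the founding member and a classical immediate early gene, showed the smallest change among the tested members. It had RPKM values of 113 and 121 in shCtl and 95.1 and 90.4 in shM2-3. The log2 fold change of FOS was -0.27 (standard error 0.0453, 95% interval -0.37 to -0.17, adjusted p = 0.000111, edgeR). Both shM2-3 libraries were below both controls. FOS (chromosome 14, 75278826 to 75282230, plus strand) has no overlapping gene in the annotation.

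FOSB and FOSL2 lay between FOS and FOSL1. FOSB, another immediate early gene, had RPKM values of 24.3 and 24.9 in shCtl and 15.5 and 15.6 in shM2-3. FOSB fell by 0.60 on the log2 scale (standard error 0.0505, adjusted p = 1.49e-07, edgeR). FOSL2, which encodes FRA2, had RPKM values of 31.9 and 32.5 in shCtl and 17.96 and 18.5 in shM2-3. FOSL2 fell by 0.75 on the log2 scale (standard error 0.0432, adjusted p = 2.74e-09, edgeR). In both genes the replicates were close to each other and the groups well apart. FOSB (chromosome 19, 45467995 to 45475179) overlaps ERCC1 on the other strand, and since the libraries carry no strand, their reads are not separated. ERCC1 had mean RPKM values of 15.4 and 14.1 and did not pass the test (log2 fold change -0.07, adjusted p = 0.277, edgeR). FOSL2 (chromosome 2, 28392448 to 28417317) overlaps the antisense gene FOSL2-AS1 and an unnamed lncRNA gene on its own strand, which were not analysed here.

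**Figure D2:**
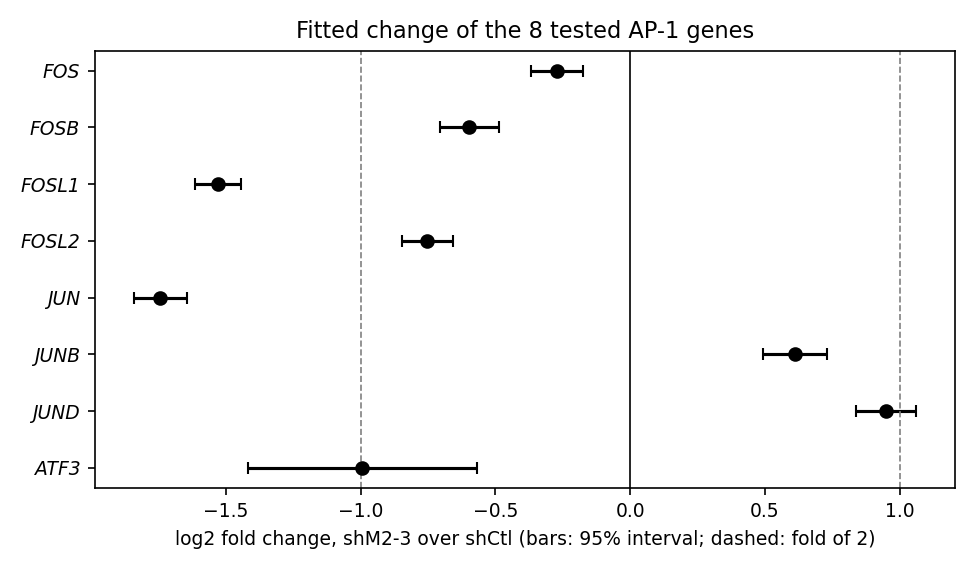
Log2 fold change of the 8 tested AP-1 genes in shM2-3 over shCtl, with 95% intervals from edgeR's quasi-likelihood fit and dashed lines at a fold change of 2. FOSL1 and JUN lie beyond the lower line, JUNB and JUND lie to the right of 0, and the interval of ATF3 is the widest.

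JUN, the prototype partner of FOS proteins and the target of the JNK kinases, was the member with the lowest log2 fold change. Its RPKM was 148 and 158 in shCtl and 42.9 and 44.5 in shM2-3, so that 28.5% of the control level remained. The counts were 11316 and 12262 against 4005 and 3758. The log2 fold change of JUN was -1.74 (standard error 0.0453, 95% interval -1.84 to -1.65, adjusted p = 6.69e-13, edgeR). JUN is on chromosome 1 from 58776845 to 58784048 on the minus strand.

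JUNB and JUND, JUN family members with weaker activation domains that often restrain proliferation, were both higher in shM2-3. JUNB had RPKM values of 59.4 and 62.1 in shCtl and 84.0 and 93.2 in shM2-3. The spread was larger in shM2-3, yet the lower of its libraries was above both controls. JUNB rose by 0.61 on the log2 scale (standard error 0.0550, adjusted p = 2.83e-07, edgeR). JUND had RPKM values of 28.0 and 27.3 in shCtl and 50.6 and 51.3 in shM2-3. Its log2 fold change was 0.95 (standard error 0.0514, 95% interval 0.84 to 1.06, adjusted p = 1.47e-09, edgeR), short of a fold change of 2. JUNB (chromosome 19, 12791486 to 12793315) overlaps HOOK2 on the other strand. HOOK2 had a mean RPKM of 6.06 in shCtl and 8.61 in shM2-3 and also rose (log2 fold change 0.57, adjusted p = 0.000169, edgeR), with 352 to 666 counts in a library where JUNB had 2546 to 4424. JUND (chromosome 19, 18279694 to 18281622) has no overlapping gene.

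The JUN genes also share a structure that the FOS genes lack: the canonical transcripts of JUN, JUNB and JUND have 1 exon each, against 4 in each FOS family gene. Their upstream sequences are shown because these 3 members moved in opposite directions. Promoter windows from RefSeq (GRCh38.p14), reaching from 250 bases before to 50 bases after a start, were found for 8 of the 10 members, all but FOSL1 and BATF3. The 250 bases before the start are given 5′ to 3′ on the gene's strand for JUN (chr1:58784048-58784297, minus strand), JUNB (chr19:12791236-12791485, plus strand) and JUND (chr19:18281623-18281872, minus strand). Capitals mark the CCAAT box, the TATA box (letters TATAAA), the CRE (TGACGTCA) and the CRE-like element TGACATCA.
JUN: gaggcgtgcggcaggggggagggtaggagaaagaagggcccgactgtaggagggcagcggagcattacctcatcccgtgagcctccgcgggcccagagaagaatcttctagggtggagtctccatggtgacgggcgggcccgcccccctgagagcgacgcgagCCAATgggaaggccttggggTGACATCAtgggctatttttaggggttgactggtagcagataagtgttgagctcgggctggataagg
JUNB: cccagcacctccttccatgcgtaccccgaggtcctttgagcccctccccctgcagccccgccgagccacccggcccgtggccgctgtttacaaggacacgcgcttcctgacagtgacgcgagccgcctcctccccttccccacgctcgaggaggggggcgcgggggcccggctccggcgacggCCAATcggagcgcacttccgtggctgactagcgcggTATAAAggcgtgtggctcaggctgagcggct
JUND: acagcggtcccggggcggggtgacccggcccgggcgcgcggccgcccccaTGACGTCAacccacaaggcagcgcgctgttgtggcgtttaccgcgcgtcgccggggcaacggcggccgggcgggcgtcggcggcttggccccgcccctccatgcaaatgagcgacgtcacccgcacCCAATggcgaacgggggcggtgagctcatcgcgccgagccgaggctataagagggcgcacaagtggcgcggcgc

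Both strands of each window were searched for these letters, for the TRE (TGACTCA), for the TEAD element (GGAATG) and for the CArG box, which SRF binds. Each of the JUN, JUNB and JUND windows held a CCAAT box, at 87, 67 and 74 bases before the start, as did 34.6% of all 35116 windows. JUN held the element TGACATCA at 67 bases before the start, an element found in 2.61% of all windows and also in 1 of the ATF3 windows, at 123 bases. JUND held a full CRE at 200 bases before the start, which 1.85% of windows hold, and JUNB a TATA box at 31 bases. TATAAA, present in 11.5% of windows, also stood at 33 bases in FOS and at 30 bases in FOSB. The TRE occurred in 4.95% of all windows and in 1 of the 11 member windows, that of FOSL2, from base 5 after the start. The TEAD element (14.0% of all windows) occurred in 1 member window, of JDP2, and the CArG box (1.29%) in none of the 11, which says only that these letters are not in these windows. The 30 bases around the FOSL2 start, with the TRE in capitals, are shown as the single TRE among the members (chr2:28392846-28392875, plus strand).
FOSL2: actcgtgccattgtagTGACTCAtctcggg

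ATF3, BATF3 and JDP2 were much less abundant. ATF3, a stress-induced factor that can pair with JUN proteins and often represses, had RPKM values of 2.78 and 2.65 in shCtl and 1.26 and 1.34 in shM2-3, from 157 and 152 counts against 87 and 84. ATF3 fell by 0.99 on the log2 scale (standard error 0.197, 95% interval -1.42 to -0.57, adjusted p = 0.000477, edgeR). This is so near a fold change of 2 that the call depended on the setting: ATF3 was called lower under 5 of 11 alternatives. These were total counts (-1.03), no filter (-1.02), limma on log2(RPKM + 0.1) (-1.01), and the fits without shCtl replicate 2 (-1.03) or without shM2-3 replicate 2 (-1.04).

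BATF3, which pairs with JUN proteins and is known from dendritic cells, gave 10 and 13 counts in the controls and 12 and 3 after shM2-3. The RPKM values, 0.511 and 0.653 against 0.501 and 0.138, did not overlap by a narrow margin, while the counts did overlap, and a difference was not detectable at this depth (without the RPKM filter, log2 fold change -0.80, 95% interval -2.45 to 0.85, adjusted p = 0.469, edgeR). JDP2, a repressor that pairs with JUN, had 1 count in shM2-3 replicate 1 and 0 counts in the other libraries, which is under the 3 counts that a count of 0 allows, and no fold is given. These poorly expressed genes lie beside other members: 66 kb separate ATF3 and BATF3 on chromosome 1, and 145 kb separate FOS and JDP2 on chromosome 14.

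Summed per family, the RPKM of the FOS genes was 470 and 486 in shCtl and 229 and 225 in shM2-3, a mean of 47.5% of control. The sum of the JUN genes was 236 and 247 in shCtl and 178 and 189 in shM2-3, or 75.9%. With TMM-scaled CPM, which does not weight genes by length, the means were 52.7% and 63.6%. A score over members was not tested, and 2 libraries against 2 cannot give an exact permutation p below 0.333. Both families also changed in make-up. Within the JUN sum, JUN contributed 63.4% ± 0.676 (SD, n = 2) of it in shCtl and 23.9% ± 0.453 (SD, n = 2) in shM2-3. JUNB went from 25.1% ± 0.0642 (SD, n = 2) to 48.3% ± 1.41 (SD, n = 2), and JUND from 11.5% ± 0.611 (SD, n = 2) to 27.8% ± 0.959 (SD, n = 2). The ratio of JUN to JUNB by RPKM was 2.498 and 2.54 in the shCtl libraries and 0.511 and 0.477 in the shM2-3 libraries.

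In the FOS family FOSL1 took 63.6% ± 0.525 (SD, n = 2) of the control sum against 44.3% ± 0.565 (SD, n = 2) in shM2-3. The share of FOS was 24.5% ± 0.623 (SD, n = 2) and 40.9% ± 0.981 (SD, n = 2). FOSB and FOSL2 each stayed below 10% of the sum in all libraries. FOSL1 thus had 2.66 and 2.53 times the RPKM of FOS in shCtl and 1.06 and 1.11 times in shM2-3. For every share of FOS, FOSL1, JUN, JUNB and JUND the replicates were closer to each other than to any library of the other group.

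**Figure D3:**
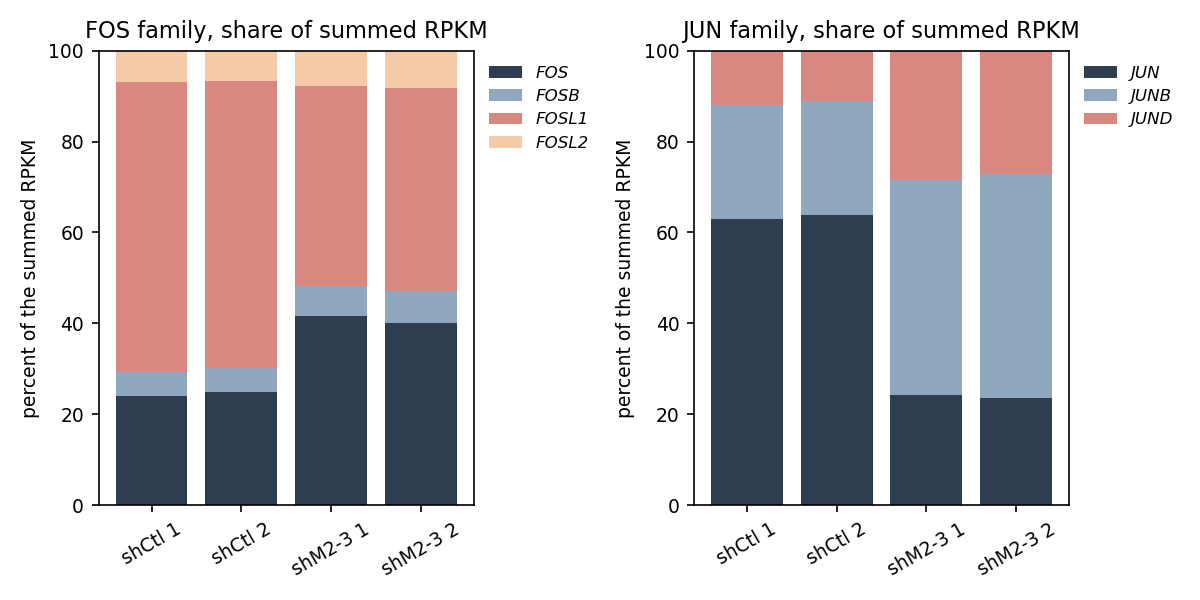
Share of each gene in the summed RPKM of the FOS family (left) and of the JUN family (right), as stacked bars from 0 to 100 percent for each of the 4 libraries. JUN takes over 60 percent of its family in both shCtl libraries and under 25 percent in both shM2-3 libraries, and FOSL1 takes a smaller part of its family in shM2-3.

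Other bZIP factors, some of which pair with FOS or JUN proteins, moved in both directions and mostly by less than a fold change of 2. Of 31 tested, 12 were lower and 10 higher at an adjusted p of 0.05 or less (edgeR), where the shares of all tested genes were 36.4% and 36.3%. Called lower were 2 (6.45%) and called higher 2 (6.45%), against 8.93% and 9.24% of all tested genes, and the median log2 fold change was 0.05. These shares were near the background. The small MAF proteins, which lack an activation domain, split: MAFG rose from a mean RPKM of 7.98 to 17.5 (log2 fold change 1.201), while MAFF (-0.72) and MAFK (-0.85) fell. ATF7 rose (0.80), and its relative ATF2, a JUN partner at CRE sites, did not pass the test (0.05, adjusted p = 0.545, edgeR). BACH2, a partner of the small MAF proteins, was called higher from a low level (mean RPKM 0.740 to 1.91, log2 fold change 1.43). BACH2 passed the RPKM filter only through shM2-3. Its relative BACH1, named after its value had been seen, fell from 26.2 to 15.3 (-0.72). DDIT3, a stress factor, and DBP, a circadian factor, were called lower (-1.28 and -1.60). BATF2 did not pass the test (0.48, adjusted p = 0.0948, edgeR), and BATF had 1 count in all 4 libraries together.

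Genes that carry signals to AP-1 mostly differed by less than a fold change of 2. Of 30 tested kinases and transcription factors of this kind, 10 were lower and 13 higher at an adjusted p of 0.05 or less (edgeR), near the 36.4% and 36.3% of all tested genes. Called lower were 0 and called higher 3 (10%), against 8.93% and 9.24%, and the median was 0.09. At an unadjusted p below 0.05, 10 were lower, while DESeq2 called 0 lower and limma on log2(RPKM + 0.1) called 1. The lowest were MAP2K3 (-0.95) and MAP2K5 (-0.87), and the highest were MRTFB (1.53), a coactivator of SRF, and MAP3K5 (1.16), a stress kinase. MAPK8, which encodes the JUN kinase JNK1, rose from a mean RPKM of 4.51 to 6.72 (0.64). Among the factors that act on the FOS promoter, ELK1 rose (0.90) and SRF rose less (0.29). The ELK1 relatives ELK3 and ELK4, named after their values had been seen, went opposite ways (0.42 and -0.66). Of 20 cofactors and turnover factors 5 were lower and 9 higher at that adjusted p (36.4% and 36.3% of all tested genes). Called in either direction by edgeR, DESeq2 or limma on RPKM were 0, where edgeR called 8.93% of all tested genes lower and 9.24% higher. At an unadjusted p below 0.05, 6 were lower and 9 higher. NCOA3, a coactivator, and GSK3B, a kinase that marks JUN for turnover, were highest (0.94 and 0.80), and MECOM was lowest (-0.51). Of the ubiquitin ligase genes that limit JUN protein, COP1 rose slightly (0.33) and FBXW7 did not pass the test (0.02, adjusted p = 0.864, edgeR). ITCH, a ubiquitin ligase gene of the same list named after its value had been seen, fell from a mean RPKM of 18.5 to 14.4 (-0.30).

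Immediate early genes, which are induced by the same stimuli as FOS, did not move as a block. Of 26 tested, 12 were lower and 10 higher at an adjusted p of 0.05 or less (edgeR), beside 36.4% and 36.3% of all tested genes. Called lower were 7 (26.9%) and called higher 4 (15.4%), beside 8.93% and 9.24% of all tested genes, and the median was -0.11. EGR1, often induced together with FOS, had mean RPKM values of 91.3 and 79.8 and a log2 fold change of -0.13 (adjusted p = 0.0113, edgeR), a value that did not pass without shCtl replicate 2 (-0.10, adjusted p = 0.1005). CCN1 (-4.88) and MYC (-2.90) were lowest. By the study's RT-qPCR, both also fell with another MAML2 shRNA, in contrast to MAML2-knockout ES-2 cells. EGR3 and EGR2 were highest, from few control reads: EGR3 went from 0 and 5 counts to 162 and 151, and EGR2 had 6 and 10 against 170 and 164. NR4A2, named after its value had been seen, was called higher too. EGR2, EGR3 and NR4A2 passed the RPKM filter only through shM2-3, the group where they were high. DUSP1, which inactivates MAP kinases, was called lower as well, from a mean RPKM of 126 to 22.7, and was named after its value had been seen.

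Genes known as AP-1 targets were more often called higher than lower. Of 40 tested, 11 were lower and 25 higher at an adjusted p of 0.05 or less (edgeR), beside 36.4% and 36.3% of all tested genes. Called lower were 5 (12.5%), near the 8.93% of all tested genes, and called higher 19 (47.5%), beside 9.24%, and the median log2 fold change was 0.91. ADAMTS1 was lowest (-4.52). ITGA2, a collagen receptor subunit, rose from a mean RPKM of 3.89 to 32.6 (3.13), and CSF2 had 0 and 2 counts in shCtl against 29 and 23, at least 7.83-fold higher than 3 counts in each control library. MMP1, the collagenase whose TRE is the textbook AP-1 site, had 845 ± 1.15 RPKM (SD, n = 2) in the controls and 883 ± 3.28 (SD, n = 2) in shM2-3. Its log2 fold change was 0.13 (adjusted p = 0.00238, edgeR), and it did not pass with limma on log2(RPKM + 0.1) (0.06, adjusted p = 0.126). PLAU, the urokinase gene, fell (-0.82), and CCND1, which encodes cyclin D1, rose from 124 to 213 RPKM (0.84). Named after their values had been seen, MMP2, MMP14 and TIMP1 were called higher (2.36, 2.18 and 2.11) and PLAUR and HBEGF called lower (-1.13 and -1.71). IL1A, PTGS2 and MMP3 were named likewise. CSF2, IL1A and PTGS2, called higher, passed the RPKM filter only through shM2-3, and MMP3, called lower, only through shCtl. The list was written from general knowledge but with earlier results of these data known, and many of its genes also answer to other factors.

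**Figure D4:**
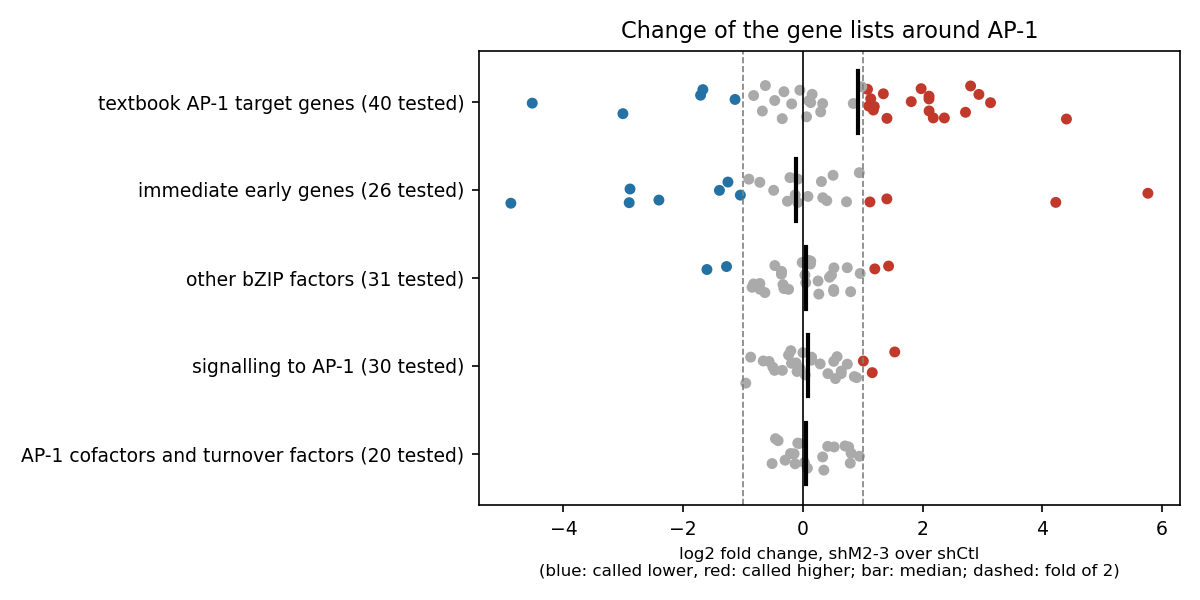
Log2 fold change in shM2-3 over shCtl of the tested genes in 5 lists around AP-1, with a point per gene, a black bar at the list median and dashed lines at a fold change of 2. The target list lies to the right, with a median of 0.91 and 19 genes called higher, and the medians of the other lists lie between -0.11 and 0.09.

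The direction and the test result of each of the 8 members held in all 88 values from 11 alternative settings. The log2 fold change of JUN ranged from -1.81 to -1.70 over them, that of FOSL1 from -1.60 to -1.52, that of JUNB from 0.53 to 0.69 and that of JUND from 0.86 to 0.97. ATF3 ranged from -1.04 to -0.69, with the value nearest 0 on the log2(RPKM + 1) scale, which understates changes of low genes.

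**Figure D5:**
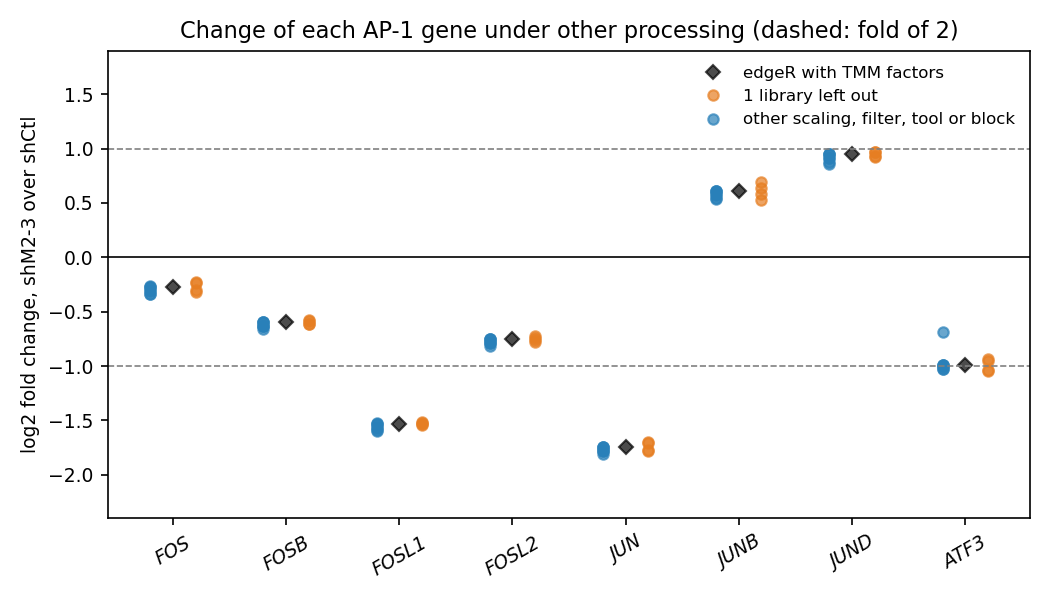
Log2 fold change of each tested AP-1 gene with edgeR and TMM factors (black diamonds), with 1 library left out (orange) and with another scaling, filter, tool or a replicate block (blue), and dashed lines at a fold change of 2. Points of a gene lie close together on the same side of 0, and ATF3 straddles the lower dashed line.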

How the data were processed

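RNA-seq of ES-2 cells with shCtl (2 libraries) or shM2-3 (2 libraries) was used. The submitters' processing notes and the methods of the study give HISAT2 2.0.4, hg38 and Partek 7.18 with RefSeq transcripts, after removal of ambiguous and poorly mapped reads. Libraries were unstranded pairs of 150 bases. The deposited estimated counts were not normalized, and between 42.4% and 48.6% of values per library were whole. The deposited RPKM values were made by the authors from transcript length and mapped reads. Totals ran from 20051083 to 23978660.

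Estimated counts were rounded and tested with edgeR 4.0.16 in R 4.3.3 (TMM factors, quasi-likelihood, two-sided, Benjamini-Hochberg adjustment over 12157 genes whose RPKM exceeded 1 somewhere). A gene could pass this filter only through the group where it was high. A call required an adjusted p up to 0.05 and at least a fold change of 2. Standard errors were the size of the log2 fold change divided by the square root of F. Tested on simulated data (12157 genes), this fit found 199 of 200 altered genes at an adjusted p up to 0.05 in the simulated direction. With a fold change of 2 required as well, it called 0 others. The altered genes all changed by more than a fold change of 2, and every gene had the same dispersion. False results at adjusted p alone and small changes were therefore not measured. Replicates within a group differed by 3.46 (shCtl) and 3.98 (shM2-3) times sampling noise, as chi-square per degree of freedom. The labels call the replicates biological and do not say how they were separated, so p-values measure only the spread between these samples.

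Alternatives were DESeq2 1.42.0, total counts, other filters, a fold limit of 1.5, limma 3.58.1 on RPKM (log2 after adding 0.1 or 1), the replicate number as a block, TMM-scaled CPM for family sums, and each library left out. Members and gene lists were chosen with earlier results of these data known. Named in each list were the 2 lowest and 2 highest tested genes and some genes listed by name, of which a few are not reported here. List results are counts and medians, without a set test. Gene positions come from GENCODE v44 (hg38) and promoter windows from RefSeq (GRCh38.p14), the same build. Markers of clear cell carcinoma, epithelium, fibroblasts and leukocytes were read as RPKM.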

Additional observations from a re-analysis of the deposited data

How the results depend on the processing

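Among members and named genes that passed the test, no direction reversed under any alternative run, while ATF2 and FBXW7, which did not pass, were near 0 and changed sign under some. Genes named after their values had been seen were not followed in these runs. No alternative changed which of the 8 tested members passed an adjusted p of 0.05. Of 583 values for named genes, 8 lost the test: MMP1 under both limma scales, EGR1 without shCtl replicate 2, and the marker genes ANXA4 and RBPJ. A fold change limit of 1.5 in place of 2 moved the counts most, to 5 lower and 2 higher of the 8 tested members. It also gave 7 lower and 5 higher of 31 bZIP factors, and 3 lower and 8 higher of 30 signalling genes. Of 20 cofactors 5 were called higher, and of 40 targets 8 were called lower. At this limit 18.9% of all tested genes were called in each direction. Without the filter on RPKM 4 of 39 bZIP factors were called higher, beside 1658 of all 19626 genes. With limma on log2(RPKM + 1) 1 bZIP factor and 0 signalling genes were called higher, beside 596 of all 12157 tested genes. On log2(RPKM + 0.1) 1 signalling gene was called lower, beside 1175 of all tested genes. With TMM-scaled CPM the summed level was 52.7% of control for the FOS family (47.5% by RPKM) and 63.6% for the JUN family (75.9%). Over all genes limma on log2(RPKM + 1) called 724 lower and 596 higher, against 1086 and 1123 with edgeR. With the replicate number as a block, 2 members were called lower and 0 higher, with 6 and 2 at adjusted p, as without it. Same-numbered libraries did not deviate together (Pearson r = 0.00291 across 11672 genes, which are not independent replicates). Depth limits BATF3 and JDP2, and for the 8 tested members the limit is the pair of libraries per group.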
